A study of Mus musculus with 6 samples.

Results

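Transcript levels of 10 fatty acid desaturase and elongase genes were followed in mouse liver: Scd1, Scd2, Fads1, Fads2, Fads3, Elovl1, Elovl2, Elovl3, Elovl5 and Elovl6. They were matched by their GENCODE M21 symbols, and the list was chosen with earlier results of these data known. All 10 were found among the 54532 genes with an Ensembl identifier. All 10 also passed the filter on low counts, which kept 12795 genes for testing. The livers came from wild-type male C57BL/6J mice that were 8 weeks old at entry. In the HFD group (3 libraries) the mice ate a high-fat diet for 4 weeks and then for another 4 weeks. The HFD+allantoin group (3 libraries) ate the same diet for the same time and had allantoin, an oxidation product of uric acid, added to its water in the last 4 weeks. The sample labels name more than 1 dose and assign none to a library, and the dose of 0.3 mg/mL is that of the group the paper describes as sequenced. Both groups ate the high-fat diet, so the values below compare allantoin with no allantoin under that diet. The labels do not say that each library is a separate mouse, so p-values measure the spread between these libraries.

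Desaturases put a double bond into a fatty acyl chain, and elongases run the first, rate-setting reaction of the cycle that lengthens the chain at the endoplasmic reticulum. In the monounsaturated route, palmitate made in the liver is lengthened by ELOVL6 and desaturated by the SCD enzymes to oleate, a main acyl chain of stored triglyceride. In the polyunsaturated route, the dietary essential fatty acids are desaturated by FADS2, lengthened by ELOVL5, desaturated again by FADS1 and lengthened further by ELOVL2, which yields arachidonic acid and the long omega-3 acids of membranes. The liver is a main site of both routes, and many of these genes are known targets of SREBP1, LXR and PPARα.

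Libraries held 11326372 to 14601457 counts. Levels are given as CPM, counts relative to library size after scaling with edgeR's TMM factors, which were 0.756 to 0.951 in HFD and 1.12 to 1.19 in HFD+allantoin. Genes of the mitochondrial chromosome took 17.9% to 36.5% of the counts in HFD and 6.92% to 11.4% in HFD+allantoin. All 8 hepatocyte markers were tested, with a summed level of 93210 to 94500 CPM in HFD and 78120 to 105900 CPM in HFD+allantoin. Alb alone made up 54400 to 82140 CPM of that sum, so it says little of the other 7. Of the 8 markers 3 were called lower without overlap between groups, Apoa1 (log2 fold change -1.23, edgeR adjusted p = 0.00790), Ttr (-0.79, adjusted p = 0.0211) and Serpina1c (-1.13, adjusted p = 0.00455), and 5 were not called. The log2 fold change was below 0 in 6 of 8, with a median of -0.42 beside -0.03 over all genes tested. It was above 0 in 2, Alb (0.13) and Cyp2e1 (0.61, edgeR adjusted p = 0.0632). Cyp2e1 did not overlap between groups, at 5421 to 7494 CPM in HFD and 9865 to 10800 CPM in HFD+allantoin. HFD replicate 2 stood apart by fat-cell transcripts. It held 520 counts of Adipoq, 498 of Plin1, 115 of Lep and 26 of Ucp1, whereas each of these 4 genes had at most 1 count in every other library. The 6 white adipocyte markers summed to 510.1 CPM in that library and to 38.5 to 92.1 CPM in the others. Macrophage markers (6 genes) summed to 98.5 to 235 CPM in HFD and to 267 to 310 CPM in HFD+allantoin, stellate cell markers (6 genes) to 54.8 to 77.5 and to 144 to 162 CPM, and endothelial markers (6 genes) to 64.5 to 113 and to 101 to 159 CPM. Cholangiocyte markers (5 genes) summed to 34.3 to 158 CPM in HFD and to 21.7 to 76.7 CPM in HFD+allantoin. The highest of these sums was in HFD replicate 3, beside 43.1 and 34.3 CPM in HFD replicates 1 and 2. Spp1 alone made up 110 CPM of it. By edgeR, 2 of 6 macrophage markers and 4 of 6 stellate cell markers were called higher, and 1 of 3 tested cholangiocyte markers was called lower. Of the 6 endothelial markers 0 were called. Over all genes tested, 11.3% were called higher and 13.0% lower, and 44.3% did not overlap between groups. In whole liver, fewer cells of a type and less RNA per cell cannot be told apart, and the part of cell composition in the results below was not tested. Values without HFD replicate 2 show only how far a result rests on the library with the fat-cell transcripts.

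The 2 front-end desaturases of the polyunsaturated route, Fads2 and Fads1, rose with allantoin, while Elovl3 and Fads3 fell and the other 6 genes were not called. At an adjusted p under 0.05 (edgeR quasi-likelihood test, Benjamini-Hochberg over all genes tested), 2 members were thus higher and 2 lower. Over all genes tested, 11.3% were called higher and 13.0% lower (24.3% in either direction), against 2, 2 and 4 of 10 members. The groups did not overlap in those same 4 members, and in 44.3% of all genes tested (22.4% higher, 21.9% lower), so their number is near the background. With an unadjusted p under 0.01 and a change of more than 1 log2 unit, 1 member was higher (Fads2) and 2 were lower (Elovl3, Fads3), beside 5.39% and 7.28% of all genes tested. The median log2 fold change of the 10 members was -0.01, beside -0.03 over all genes tested. With scaling by library size only, which raised the median of all genes by 0.415, 3 members were higher and 1 was lower, beside 3162 higher and 674 lower over all genes, where the TMM scaling gave 1446 and 1666.

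**Figure D1:**
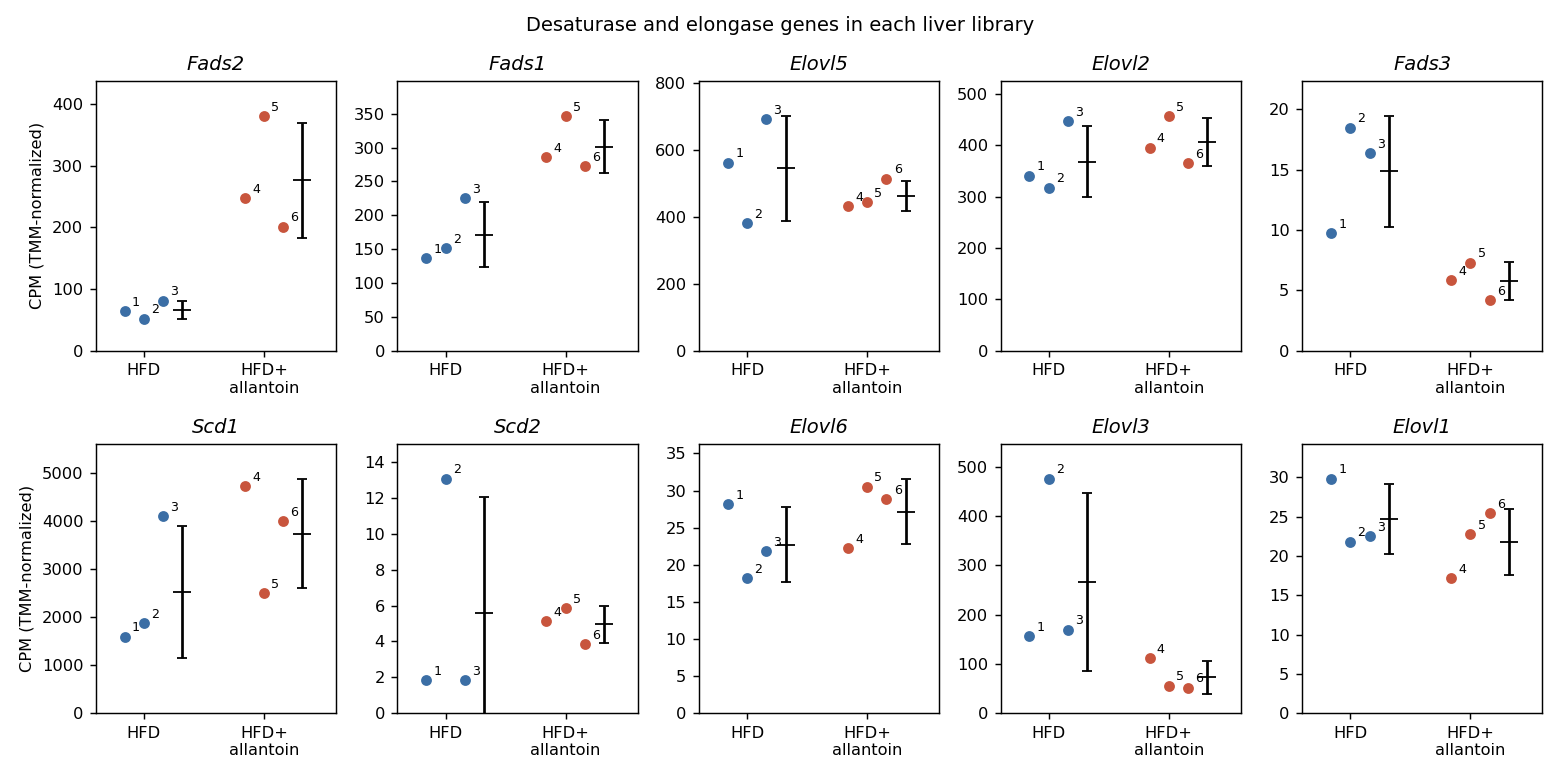
Level of each of the 10 genes in CPM (vertical axes, linear and starting at 0) in the 3 HFD libraries (blue) and the 3 HFD+allantoin libraries (orange), numbered by replicate, with the mean and SD of each group as black bars (the lower bar of Scd2 runs below the axis). Fads2 and Fads1 sit higher in every HFD+allantoin library than in any HFD library, Fads3 and Elovl3 sit lower, and Scd2 and Elovl3 are highest in HFD replicate 2.

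Fads2 (ENSMUSG00000024665, GRCm38 chromosome 19, 10062765 to 10101746), which encodes the desaturase that opens the polyunsaturated route, was at 64.0, 51.8 and 81.1 CPM in the HFD libraries (replicates 1 to 3). It was at 247, 380.2 and 201 CPM in the HFD+allantoin libraries (replicates 4 to 6). The lowest HFD+allantoin value was more than 2 times the highest HFD value, and replicate 5 was the highest of all. Fads2 rose from 65.6 ± 14.7 to 276 ± 93.0 CPM (SD, n = 3 each), a 4.21-fold change (log2 fold change 2.07, standard error 0.27, 95% interval 1.46 to 2.69, edgeR adjusted p = 0.00337). Its call was kept in all 18 alternatives run, with log2 fold changes of 1.78 to 2.48.

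Fads1 (ENSMUSG00000010663, chromosome 19, 10182888 to 10196877), the desaturase that acts later in the same route and forms arachidonic acid, was at 137, 151 and 226 CPM in HFD. In HFD+allantoin it was at 286, 346 and 273 CPM, so that the groups did not overlap, and again replicate 5 was the highest. The rise from 171 ± 47.6 to 302 ± 39.3 CPM (SD, n = 3 each) was 1.76-fold (log2 fold change 0.82, standard error 0.22, edgeR adjusted p = 0.0279). This call was lost when any 1 library other than HFD replicate 3 was left out (edgeR adjusted p of 0.0607 to 0.116), with log2 fold changes of 0.67 to 0.89 in those fits.

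The 2 elongases of the polyunsaturated route were not called. Elovl5 (ENSMUSG00000032349, chromosome 9), which lengthens the products of FADS2, was at 562, 382 and 693 CPM in HFD and at 432, 445 and 515 CPM in HFD+allantoin, with the latter inside the HFD range. Its log2 fold change was -0.23 (95% interval -0.75 to 0.28, edgeR adjusted p = 0.483). Elovl2 (ENSMUSG00000021364, chromosome 13), which lengthens the longest polyunsaturated chains, was at 341, 317 and 447 CPM in HFD and at 396, 457 and 365 CPM in HFD+allantoin, again with overlap. Its log2 fold change was 0.14 (95% interval -0.29 to 0.56, edgeR adjusted p = 0.622). These intervals reach no higher than 0.56, below the lower bound of the Fads2 interval. The 95% interval of Fads1, 0.32 to 1.31, overlapped that of Elovl2. The difference between the genes was not itself tested.

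**Figure D2:**
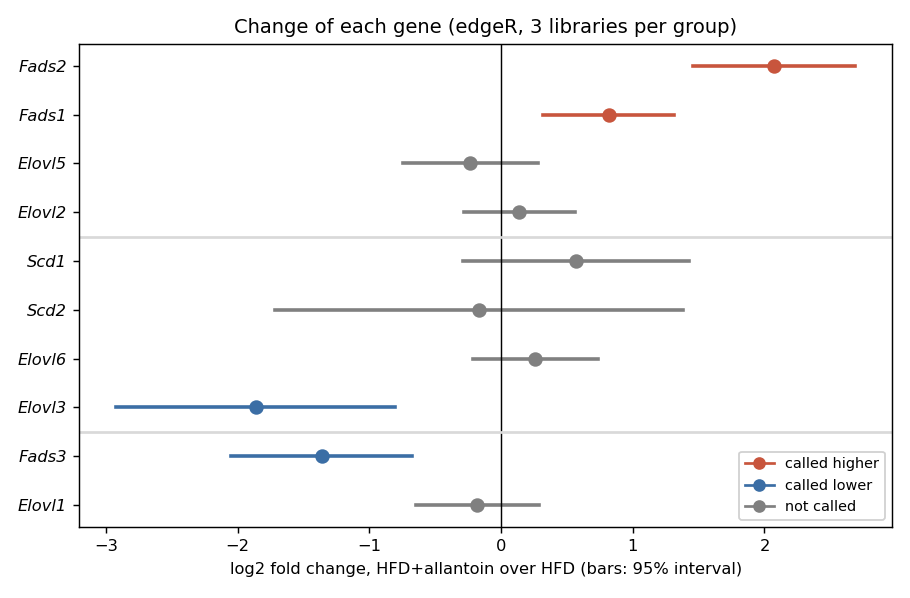
log2 fold change of HFD+allantoin over HFD (horizontal axis) for each gene, with 95% intervals from the edgeR fit on 3 libraries per group, grouped from the top as polyunsaturated route, monounsaturated route and the other 2 genes. Fads2 and Fads1 lie to the right of 0 and Elovl3 and Fads3 to the left, and the intervals of the 6 genes in grey cross 0.

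Fads3 (ENSMUSG00000024664, chromosome 19, 10041569 to 10060110) encodes a desaturase known to act on sphingoid bases rather than on polyunsaturated acids. It was at 9.72, 18.5 and 16.4 CPM in HFD and at 5.87, 7.28 and 4.19 CPM in HFD+allantoin. Every HFD+allantoin library was below the lowest HFD library, replicate 1. Fads3 fell from 14.9 ± 4.57 to 5.78 ± 1.55 CPM (SD, n = 3 each), or by -1.36 in log2 terms (standard error 0.30, edgeR adjusted p = 0.0141). The call was lost without HFD+allantoin replicate 4 (edgeR adjusted p = 0.0575) or replicate 6 (edgeR adjusted p = 0.0566), and with scaling by library size only (edgeR adjusted p = 0.0576, log2 fold change -0.97).

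The 3 Fads genes are neighbours, and they did not move as a block. Only 2654 bases separate Fads3 from Fads2, and the 2 genes, read toward each other, changed in opposite directions. Fads1 lies 81141 bases beyond Fads2. Within 100000 bases of this cluster 8 genes were tested, the 3 Fads genes among them. Where 24.3% of all genes tested were called in either direction, 3 of these 8 were called higher, 3 lower and 2 were not called. Beside the Fads genes these were, named here for their position after the values were seen, Myrf (log2 fold change 0.85, edgeR adjusted p = 0.0343), which encodes a membrane-bound transcription factor, Tmem258 (-1.30, adjusted p = 0.00403), a subunit of the oligosaccharyltransferase, and Dagla (-1.83, adjusted p = 0.0275), a diacylglycerol lipase at 1.50 CPM or less. Fth1 and Rab3il1 were not called. In the Scd cluster, also on chromosome 19, none of the 5 genes tested within the same distance was called by edgeR, Scd1 and Scd2 included. At an unadjusted p under 0.05 there was 1, Bloc1s2 (log2 fold change -0.73, edgeR adjusted p = 0.0591), and DESeq2 called 1 and limma-voom 0.

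To show what lies in front of these neighbours, the 250 bases before the start were read from RefSeq (GRCm38.p6) for the 6 members in its promoter table, which gave 8 windows. Scd1, Scd2, Fads1 and Elovl3 had no entry. Searched on both strands were CCAAT, the GC box GGGCGG, the E-box CACGTG, a sterol regulatory element as TCACNCCAC, and the nuclear receptor direct repeats DR1 and DR4 in their consensus form. In that order they were found in 33.8%, 32.7%, 6.02%, 1.05%, 0.0335% and 0.0152% of 32851 such windows. Capitals mark the matches in the windows of Fads3, which fell, and of Elovl5, which was not called, both 5′ to 3′ on the gene's strand (plus), at chr19:10041298-10041547 and chr9:77917115-77917364.
Fads3: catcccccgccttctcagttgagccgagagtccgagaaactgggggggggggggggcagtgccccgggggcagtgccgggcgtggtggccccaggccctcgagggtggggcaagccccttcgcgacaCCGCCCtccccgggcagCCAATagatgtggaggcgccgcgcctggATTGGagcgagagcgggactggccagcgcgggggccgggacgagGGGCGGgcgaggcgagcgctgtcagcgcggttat
Elovl5: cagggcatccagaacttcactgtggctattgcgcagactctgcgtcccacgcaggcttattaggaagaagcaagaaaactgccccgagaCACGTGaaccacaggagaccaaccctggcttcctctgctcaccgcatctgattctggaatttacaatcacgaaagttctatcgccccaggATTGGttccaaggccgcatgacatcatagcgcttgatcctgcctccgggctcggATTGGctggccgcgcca
The Fads3 window held a GC box and a CCAAT box on either strand, and the Elovl5 window held an E-box and a pair of CCAAT boxes on the minus strand. In Fads2, 243 of the 250 bases before the RefSeq start are exonic in GENCODE. The window held 1 match, a GC box on the minus strand of the chromosome. It is shown here with the 10 bases on each side, and the whole stretch lies at chr19:10101674-10101699.
Fads2: ggcctagggtGGGCGGaggaagggga
Neither the sterol regulatory element nor the nuclear receptor repeats were found in any of the 8 windows, which says only that these letters are absent from them.

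In the monounsaturated route, Scd1 (ENSMUSG00000037071, chromosome 19, 44394455 to 44407879), the main stearoyl-CoA desaturase of liver, was at 1591, 1874 and 4101 CPM in HFD. It was at 4717, 2493 and 3996 CPM in HFD+allantoin. HFD replicate 3 lay among the HFD+allantoin values, so the groups overlapped. The means were 2522 ± 1375 and 3735 ± 1135 CPM (SD, n = 3 each), with a log2 fold change of 0.57 (95% interval -0.29 to 1.43, edgeR adjusted p = 0.301). Leaving out HFD replicate 3 gave 1.11, which was called (edgeR adjusted p = 0.0239), so the value rests on that library. The interval does not exclude the 1.76-fold rise of Fads1.

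The study also measured Scd1 and Elovl6 by qPCR, and the primers show which stretch of each transcript that assay reads. They are given 5′ to 3′.
Scd1 forward: caggtttccaagcgcagttc
Scd1 reverse: tcgttcatttccggagggag
Elovl6 forward: cgctgtctttatgagaccga
Elovl6 reverse: cttgtaactccgtgacaggct
The Scd1 pair matched chromosome 19, 44407499 to 44407518 in the untranslated part of exon 1, and 44406701 to 44406720 in the coding part of exon 2, with a product of 193 bases. The Elovl6 pair matched chromosome 3, 129636800 to 129636819 and 129636951 to 129636971, both in the untranslated part of exon 5, the last, with a product of 172 bases. In GENCODE M21 neither pair matched a transcript of another gene. The paper reports that qPCR showed higher expression of lipogenesis and lipid droplet genes in livers of the high-dose allantoin group. Its main text does not name Scd1 or Elovl6, and the qPCR values were not analysed here.

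Scd2 (ENSMUSG00000025203, chromosome 19), the desaturase better known from brain and fat tissue, was low. It was at 1.86, 13.0 and 1.84 CPM in HFD and at 5.13, 5.86 and 3.85 CPM in HFD+allantoin. HFD replicate 2, the library with the fat-cell transcripts, was the highest of all, while the other 2 HFD libraries were the lowest. The log2 fold change was -0.17 (95% interval -1.72 to 1.38, edgeR adjusted p = 0.881). Leaving out HFD replicate 2 turned it to 1.42, which was called (edgeR adjusted p = 0.0316). Scd2 shares 623 bases at 95% identity or more with Scd1, which had 14569 to 64345 counts where Scd2 had 17 to 132, so the split of reads between them is uncertain. Of the further family genes, Scd4 was at 0 counts in every library, and Scd3 at 0 in 5 libraries and at 3 counts in HFD+allantoin replicate 5.

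Elovl6 (ENSMUSG00000041220, chromosome 3, 129532355 to 129638495), which lengthens palmitate to stearate, was at 28.2, 18.2 and 21.8 CPM in HFD and at 22.2, 30.5 and 28.8 CPM in HFD+allantoin. The groups overlapped, and the log2 fold change was 0.26 (95% interval -0.21 to 0.73, edgeR adjusted p = 0.390). With scaling by library size only it was 0.69 and was called (edgeR adjusted p = 0.0292), and it was -0.012 once a trend with length and GC was taken out. A processed pseudogene, Gm11295, shares 805 bases of near-identical sequence with Elovl6 and was at 0 counts in every library.

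Elovl3 (ENSMUSG00000038754, chromosome 19, 46131897 to 46135694) lengthens saturated and monounsaturated chains and is known for high expression in brown fat and for male-biased, daily changing expression in mouse liver. It was at 157, 475 and 170 CPM in HFD and at 112, 55.9 and 52.2 CPM in HFD+allantoin. Every HFD+allantoin library was below every HFD library, and HFD replicate 2 was far above the rest. Elovl3 fell from 267 ± 180.3 to 73.5 ± 33.6 CPM (SD, n = 3 each), or by -1.86 in log2 terms (standard error 0.47, edgeR adjusted p = 0.0217). Leaving out HFD replicate 2 gave -1.15, still called (edgeR adjusted p = 0.0399), so the size of the fall depends on that library. Without HFD+allantoin replicate 5 or 6 the call was lost (edgeR adjusted p of 0.0938 and 0.0856). The brown adipocyte markers (4 genes) summed to 11.3 CPM in HFD replicate 2 and to 0.473 to 4.47 CPM in the other libraries.

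Elovl1 (ENSMUSG00000006390, chromosome 4), which lengthens very long saturated chains for sphingolipids, was at 29.8, 21.8 and 22.5 CPM in HFD and at 17.2, 22.8 and 25.5 CPM in HFD+allantoin, with overlap. The log2 fold change was -0.18 (95% interval -0.65 to 0.29, edgeR adjusted p = 0.559). Elovl1 shares 53 exonic bases with Cdc20 on the opposite strand, Elovl3 shares 10 with Pitx3 and Elovl6 shares 34 with the antisense gene Gm35986, and strand use in counting is not given in the sources used here.

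**Figure D3:**
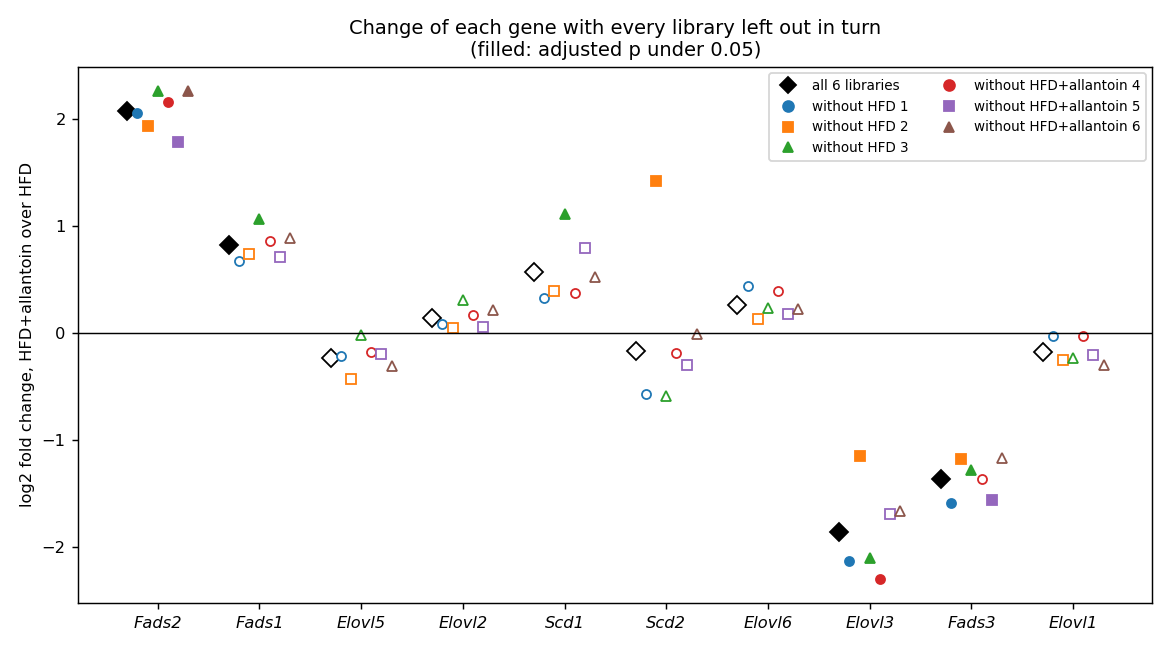
log2 fold change of HFD+allantoin over HFD (vertical axis) for each gene with all 6 libraries (black diamonds) and with each library left out in turn, filled where the edgeR adjusted p was under 0.05. Fads2 is filled throughout, Scd2 lies at 1.42 without HFD replicate 2 and below 0 otherwise, and Scd1 is filled only without HFD replicate 3.

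Because scaling cancels within a library, the routes were also set against each other there. For 100 counts of Scd1, the HFD libraries held 4.02, 2.76 and 1.98 counts of Fads2, and the HFD+allantoin libraries held 5.24, 15.3 and 5.04. The groups did not overlap, and replicate 5 held about 3 times the value of the other 2 HFD+allantoin libraries. For Fads1 the values were 8.61, 8.08 and 5.50 per 100 Scd1 counts in HFD and 6.06, 13.9 and 6.82 in HFD+allantoin. Here the groups overlapped, and replicate 5 was again the highest. For each Elovl6 count there were 20.0 to 31.8 Elovl5 counts in HFD and 14.6 to 19.5 in HFD+allantoin. These groups did not overlap either, by a narrow margin, but here the polyunsaturated gene was the relatively lower one with allantoin. No test was made of these ratios.

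The mean log2 CPM of the polyunsaturated genes (Fads1, Fads2, Elovl2, Elovl5) minus that of the monounsaturated genes (Scd1, Scd2, Elovl6, Elovl3) was 1.72, 0.54 and 1.89 in HFD and 1.90, 2.51 and 2.18 in HFD+allantoin. The group means of this difference were 1.38 ± 0.74 and 2.20 ± 0.30 (SD, n = 3 each), which is 0.81 apart. The mean log2 CPM of the polyunsaturated genes was 0.71 higher in HFD+allantoin, and that of the monounsaturated genes differed by -0.10 with overlap. The 0.71 does not describe each polyunsaturated gene. Their log2 fold changes by edgeR were 2.07 for Fads2, 0.82 for Fads1, 0.14 for Elovl2 and -0.23 for Elovl5. Nor does the -0.10 describe each monounsaturated gene. By edgeR these were at 0.57 for Scd1, 0.26 for Elovl6, -0.17 for Scd2 and -1.86 for Elovl3, and each counts equally in the mean. Without HFD replicate 2 the difference between routes was 0.39. With Scd1 and Elovl6 as the only monounsaturated genes, a choice made after seeing the data, it was 0.25 with overlapping groups. No test was made of these scores over members.

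**Figure D4:**
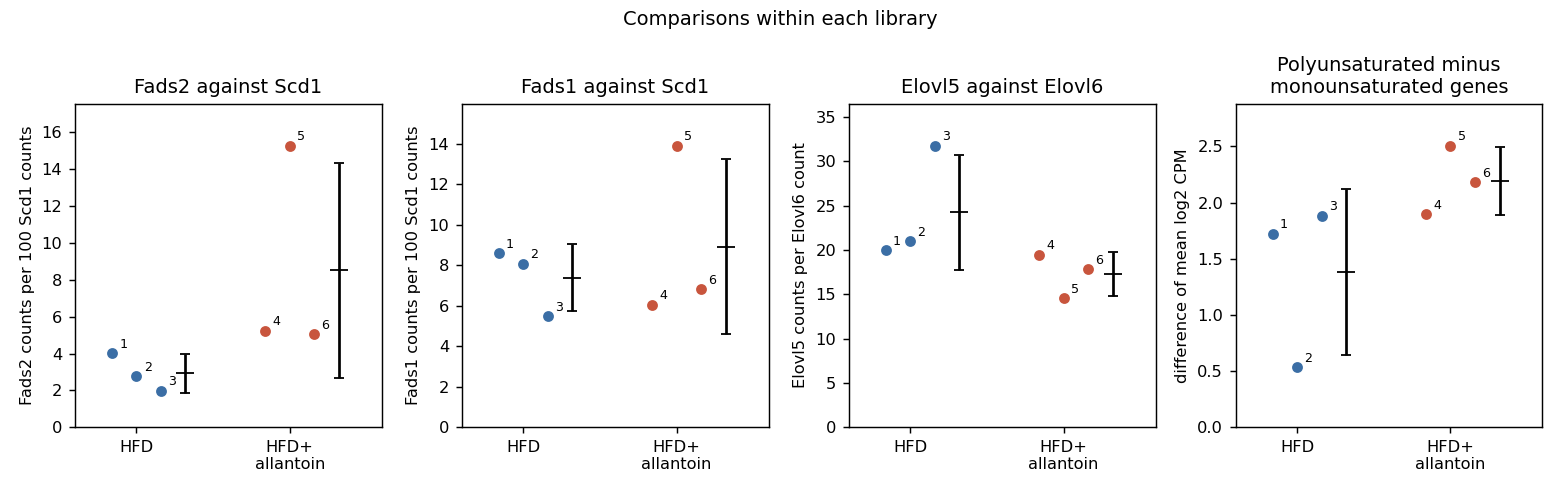
Values compared within each library (vertical axes, starting at 0): Fads2 and Fads1 counts per 100 Scd1 counts, Elovl5 counts per Elovl6 count, and the mean log2 CPM of 4 polyunsaturated genes minus that of 4 monounsaturated genes, with points numbered by replicate and group mean and SD in black. HFD replicate 2 is lowest in the last panel at 0.54, and HFD+allantoin replicate 5 is highest in both panels of Fads genes against Scd1.

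Per kilobase of exon, the members spanned a wide range of levels. Scd1 was highest in both groups, at 516 ± 281 CPM per kilobase in HFD and 764 ± 232 in HFD+allantoin (SD, n = 3 each), and Scd2 was lowest, at 1.02 ± 1.18 and 0.905 ± 0.186. In HFD the order below Scd1 was Elovl5, Elovl3, Elovl2, Fads1, Fads2, Elovl1, Fads3, Elovl6 and Scd2. In that order Elovl5 and Elovl3, Elovl3 and Elovl2, and Fads3 and Elovl6 overlapped between libraries, and the other neighbours did not. In HFD+allantoin, Fads2 took the fourth place at 83.8 ± 28.2 CPM per kilobase, after the sixth at 19.9 ± 4.47 in HFD, and its values overlapped those of Elovl2 and Fads1. Elovl3 took the sixth place at 37.2 ± 17.0, after the third at 135 ± 91.3 in HFD.

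Around the 10 genes, 60 genes that feed, drive or use the same reactions were listed by function, of which 50 were tested. By edgeR 15 of these were higher and 2 lower, and their median was 0.41 on the log2 scale. All genes tested had 11.3% called higher, 13.0% lower and a median of -0.03. The lists were chosen with earlier results of these data known, so their counts cannot test for an excess over all genes. Genes named below that were not called, other than Fasn, Acaca, Nr1h3 and Insig1, were picked after their values were seen. With scaling by library size only, 26 of the 50 were higher and 1 lower, beside 3162 higher and 674 lower of all 12795 genes tested.

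Of the other desaturases, Fads6, an enzyme of little-known substrate, rose from 41.2 ± 6.16 to 82.2 ± 18.5 CPM (SD, n = 3 each; log2 fold change 0.995, edgeR adjusted p = 0.0109). Degs1, which puts the double bond into dihydroceramide, rose from 27.2 ± 6.75 to 51.7 ± 0.890 CPM (log2 fold change 0.93, edgeR adjusted p = 0.0125). Elovl7 had 2 to 7 counts per library, Elovl4 at most 1, and Degs2 at most 2, so that these were not tested.

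The partners that complete each elongation cycle were split. Of 5 tested, Hacd3, a dehydratase, rose (log2 fold change 0.56, edgeR adjusted p = 0.0278), and its relative Hacd2 fell (-0.61, adjusted p = 0.0307). In every HFD+allantoin library Hacd3 was above, at 197 to 220 CPM, and Hacd2 below, at 38.7 to 51.0 CPM, any HFD library, where they were at 133 to 152 and at 62.2 to 75.0 CPM. The reductases Hsd17b12 (0.59, adjusted p = 0.0975) and Tecr (-0.39, adjusted p = 0.198) were not called. Among 5 tested genes for electron supply, Cyb5b rose from 117 ± 15.1 to 288 ± 27.3 CPM (SD, n = 3 each; log2 fold change 1.30, edgeR adjusted p = 0.00335), and Cyb5r4, a fused cytochrome b5 reductase, also rose (0.79, adjusted p = 0.0487). Cyb5b encodes the cytochrome b5 of the outer mitochondrial membrane. The microsomal form, Cyb5a, known as the donor of these desaturases, was at 1414 ± 52.2 CPM in HFD and 1120 ± 125 CPM in HFD+allantoin (log2 fold change -0.34, edgeR adjusted p = 0.174), and its reductase Cyb5r3 was not called either (-0.28, adjusted p = 0.210).

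Of 8 genes that supply substrate, 4 rose. Acly, which makes cytosolic acetyl-CoA from citrate, rose, with 22.7 to 36.5 CPM in the HFD libraries and 49.9 to 63.7 CPM in the HFD+allantoin libraries (log2 fold change 0.96, edgeR adjusted p = 0.0120), and Acss2, which makes it from acetate, rose as well (0.78, adjusted p = 0.0250). Acacb (0.91, adjusted p = 0.00937) encodes the carboxylase at mitochondria and Mcat (0.89, adjusted p = 0.0251) an enzyme of mitochondrial fatty acid synthesis, so neither is part of the cytosolic supply of palmitate. The cytosolic pair, Acaca and Fasn, had log2 fold changes of 0.09 (adjusted p = 0.760) and -0.19 (adjusted p = 0.688), and Fasn was highest in HFD replicate 2, at 135 CPM against 59.6 to 89.8 CPM elsewhere. None of 4 tested acyl-CoA synthetases passed the test by edgeR, DESeq2 or limma-voom, and 1 had an unadjusted edgeR p under 0.05, Acsl5 (log2 fold change 0.48, edgeR adjusted p = 0.0975).

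The last shortening step of docosahexaenoic acid synthesis takes place in the peroxisome. Of 8 genes tested for that step, 3 were called higher by edgeR and 5 were not called. The acyl-CoA transporters Abcd3 and Abcd2 rose. Abcd3 was at 207, 363 and 260 CPM in HFD and at 671, 685 and 624 CPM in HFD+allantoin (log2 fold change 1.25, edgeR adjusted p = 0.00618). Abcd2, which favours polyunsaturated substrates, was at 5.13, 11.6 and 13.4 CPM in HFD and at 29.8, 26.1 and 43.9 CPM in HFD+allantoin (1.72, adjusted p = 0.00938). Neither gene overlapped between the groups. Among the 5 not called were Hsd17b4 (log2 fold change 0.12, edgeR adjusted p = 0.586), Acaa1a (0.14, adjusted p = 0.542), Acaa1b (0.33, adjusted p = 0.224) and Scp2 (0.03, adjusted p = 0.914). None of the 5 tested acyltransferases that place polyunsaturated chains into phospholipids was called by edgeR, with Lpcat3, the main one of liver, at -0.27 (adjusted p = 0.204) and Agpat3 at 0.47 (adjusted p = 0.0618). At an unadjusted p under 0.05 there were 2 of them, and DESeq2 called 1 and limma-voom 0.

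The regulators of these genes moved in different directions. Mlxipl, which encodes the carbohydrate-responsive factor ChREBP, was at 475, 187 and 261 CPM in HFD and at 88.5, 82.2 and 67.9 CPM in HFD+allantoin, without overlap (log2 fold change -1.95, edgeR adjusted p = 0.00513). Srebf1, which encodes SREBP1, rose from 49.6 ± 7.14 to 77.2 ± 5.41 CPM (SD, n = 3 each; log2 fold change 0.64, edgeR adjusted p = 0.0253). Ppara was at 39.1, 27.4 and 18.9 CPM in HFD and at 109, 146 and 91.4 CPM in HFD+allantoin, without overlap (log2 fold change 2.02, edgeR adjusted p = 0.00389). Rxra, the partner of PPARα and LXR, rose from 199 ± 12.5 to 376 ± 56.7 CPM (SD, n = 3 each; 0.92, edgeR adjusted p = 0.00787). Nr1h3, which encodes LXRα (0.27, edgeR adjusted p = 0.226), and Insig1, which holds SREBP in the endoplasmic reticulum (0.38, adjusted p = 0.460), were not called. Of the 13 control genes tested, 3 were higher, 1 lower and 9 not called.

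**Figure D5:**
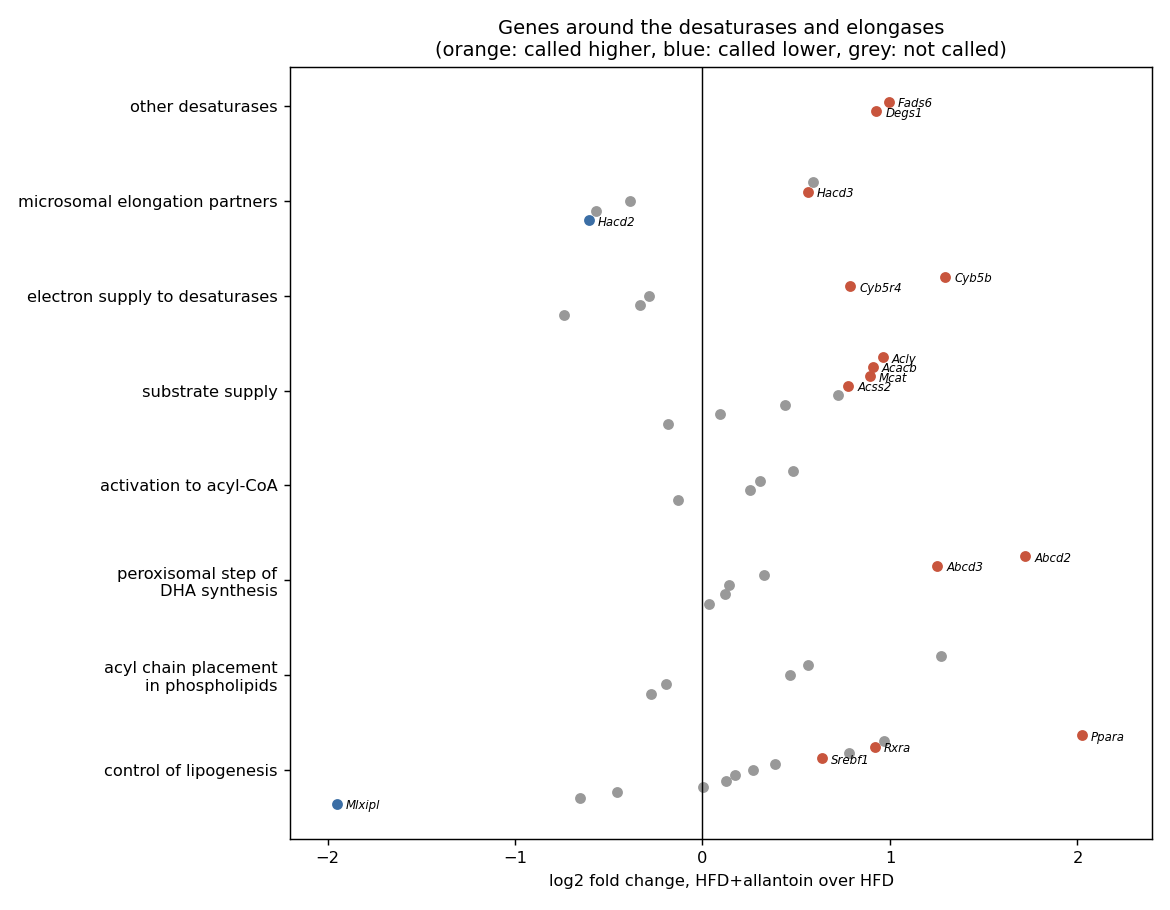
log2 fold change of HFD+allantoin over HFD (horizontal axis) for 48 of the tested genes around the desaturases and elongases, 1 point a gene, by function (rows). Called genes are named: 14 lie to the right of 0, with Ppara and Abcd2 farthest, and Mlxipl at -1.95 and Hacd2 at -0.61 lie to the left.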

How the data were processed

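The authors deposited a table of unnormalized whole-number counts for each gene, after filtering of Illumina reads. The submitters' processing notes name GRCm38 (mm10), and the aligner and counting tool are not given in the sources used here. Symbols, positions and lengths came from GENCODE M21 (GRCm38), which held 54495 of 54532 Ensembl identifiers. A further 429 features (0.197% to 0.306% of counts) were left out. Groups were compared with edgeR 4.0.16 (TMM, filterByExpr, quasi-likelihood test, group as only term, R 4.3.3), with Benjamini-Hochberg adjustment over 12795 genes. Standard errors and 95% intervals were derived from the F statistic. Log2 CPM values for route means used a prior count of 2. CPM per kilobase used the union of annotated exons. Near-identical transcripts were searched with BLAST 2.17.0. Named were the 10 members, at most 5 called genes with the smallest p per list, and 8 control genes and enzymes. The members and lists were chosen with earlier results of these data known. Totals limit precision for the lowest genes, such as Scd2. With 3 libraries against 3, an exact permutation test of 1 gene cannot give a p below 0.1. Alternatives were other normalizations, DESeq2 1.42.0, limma-voom (limma 3.58.1), other filters, thresholds, left-out libraries, a length and GC correction (splines with 5 degrees of freedom), and other feature sets. The procedure was also run on simulated counts with far fewer changed genes than were called here. That run does not test the choice of scaling between these groups. Some genes of the lists are not reported here, and they remain in the counts over lists.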

Additional observations from a re-analysis of the deposited data

How the results depend on the processing

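With scaling by library size only, the counts were 1 member lower, 26 route genes higher and 1 lower, and 3162 genes higher and 674 lower among all tested, and the log2 fold changes of Scd2 (0.22), Elovl5 (0.17) and Elovl1 (0.25) turned positive. At an adjusted p under 0.01, 1 member was higher and 0 lower, 7 route genes higher and 1 lower, and 443 genes higher and 573 lower. When a raw p under 0.01 and a change beyond 1 log2 unit were required, 1 member was higher, 5 route genes higher and 1 lower, and 690 genes higher and 931 lower. With each library left out in turn, 1 to 3 members were higher and 0 to 2 lower, 7 to 19 route genes higher and 1 to 4 lower, 460 to 1773 genes higher and 564 to 2008 lower, and the difference between routes was 0.39 to 1.07. Scd2 was 0.47 with limma-voom and ranged from -0.59 to 1.42 with a library left out, positive only without HFD replicate 2. With the length and GC trend removed, Elovl6 was -0.012 and Elovl2 -0.040. The causes of these changes were not tested. Fads2 was called in 18 of 18 alternatives, Elovl3 in 15, Fads3 in 14 and Fads1 in 11. With the longest transcript in place of the exon union, 5 of 20 per-kilobase values moved by over 1 SD. No paired analysis was possible because the groups share no replicate numbers (1 to 3 and 4 to 6).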
